A study of Homo sapiens with 42 samples.

Results

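FOXA1, FOXA2 and FOXA3 are the genes of the FOXA family, the forkhead transcription factors of liver and other organs that arise from endoderm. They were chosen by name, as every probe whose array annotation names FOXA1, FOXA2 or FOXA3 and no other gene. The annotation gave 1 probe for each gene: probe 11033 for FOXA1, probe 12168 for FOXA2 and probe 7459 for FOXA3. These are 3 of the 5631 genes named by a probe of their own on the array.

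FOXA proteins are known as pioneer factors. Their winged helix domain resembles a linker histone and binds DNA that is wrapped in a nucleosome, which opens liver enhancers to other factors. FOXA1 and FOXA2 act early in liver development and are partly redundant, and FOXA3 is the family member best known from the mature liver. In hepatocytes they bind beside HNF4 alpha, HNF1 alpha and C/EBP factors at genes such as those of albumin, transthyretin and the insulin-like growth factor binding protein IGFBP1. In liver and hepatoma cells inflammatory cytokines induce the acute phase response, in which the synthesis of plasma proteins is shifted at the level of transcription.

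The cells were Hep3B, an established human hepatoma line, grown either with CM, described by the submitters as a medium rich in pro-inflammatory cytokines, or with its control, NCM. They asked which mRNAs come to differ between these media as time passes. Total RNA was measured on 42 arrays, which form 14 groups of 3. Each medium was sampled at 7 times: T0, then 15 min and 30 min, then 1 h and 3 h, and finally 6 h and 16 h. In 3 independent experiments (replicates 1, 2 and 3), the CM culture and the NCM culture of a time were set up together from trypsinized cells of a single batch, so the series holds 21 pairs. The labels name neither the cytokines nor their doses, and Hep3B is a single tumour line, so replicates are repeats of the culture in that line.

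Values are log2 intensities after quantile normalization, and a difference is CM minus NCM on that log2 scale unless stated otherwise. The mean intensity of an array lay between 0.999 and 1.00 as deposited, and its median between 0.354 and 0.807. All 16 of the 16 hepatocyte and hepatoma marker genes had a mean level above the median of all probes, 4 of them in the top decile. Of 13 marker genes of blood, mesenchymal and endothelial cells, 8 were measured, 2 of these lay above that median and 0 in the top decile. With 3 arrays in a group, precision is limited by their number.

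Before the levels of the FOXA genes are described, their T0 values need a caution. At T0 the FOXA1 and FOXA2 probes carried exactly the same deposited value on 6 of 6 arrays, with no tolerance. FOXA3 likewise carried the same value as probe 11601, which has no gene name, on 6 of 6 arrays. At each of the other 6 times, 0 of 6 arrays had the same value in either couple, and at 3 h FOXA1 and FOXA2 differed by up to 1.15 in deposited intensity. Probes that share all 6 values of a time were rare: 12 probes in 6 sets at T0, or 0.0868% of the array, and 36 probes (0.26%) at any time. Of the 34 sets over the 7 times, 20 joined probes with the same gene name or names, while those of the FOXA probes did not.

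The arrays themselves fell into sets. Hierarchical clustering of all probes other than the FOXA probes gave a larger set of 24 arrays (12 pairs) and a smaller set of 18 arrays (9 pairs). The labels name no batch that matches these sets, and 0 pairs were split between them, so CM and NCM of a pair were always compared within a set. The larger set held replicate 1 at T0, replicates 2 and 3 at 15 min, 30 min, 1 h, 3 h and 16 h, and replicate 2 at 6 h. Set and time are therefore not independent: T0 and 6 h have 1 pair in the larger set, and the other times have 2.

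Which probe of a couple the shared T0 values belong to cannot be read from the values of FOXA1 and FOXA2. The T0 values lay within FOXA1's own later range on 2 of 2 arrays of the larger set and on 4 of 4 arrays of the smaller set, and within FOXA2's range on 2 of 2 and 3 of 4. For FOXA3, the T0 values of replicate 1, 0.14 in CM and 0.18 in NCM, lay within its later range on the larger set, -0.02 to 0.72. The unnamed probe ranged from -3.22 to -0.60 on those later arrays, so the T0 values of replicate 1 lay outside its range on 2 of 2 arrays. On the smaller set the T0 values lay within the later range of both probes on 4 of 4 arrays, so those arrays do not tell the probes apart. The T0 differences of FOXA1 and FOXA2 are thus 1 set of measurements and not 2, and every comparison of these genes with T0 rests on values that are not known to be their own.

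**Figure D1:**
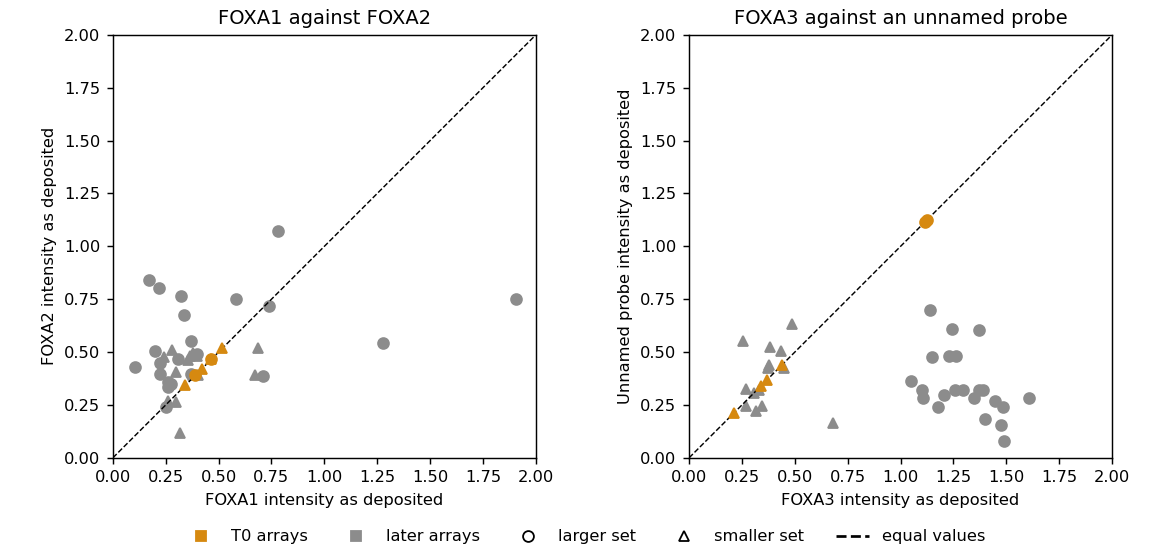
Deposited intensity of the FOXA2 probe against the FOXA1 probe (left) and of the unnamed probe 11601 against the FOXA3 probe (right), 1 point per array, with linear axes and a dashed line of equal values. The 6 orange T0 arrays lie on the line in both panels, while later arrays spread to both sides on the left. On the right, later arrays of the larger set (circles) form a separate cloud of high FOXA3. Later arrays of the smaller set (triangles) stay at low values of both probes.

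FOXA1 had its highest level at 3 h in the control medium. In NCM at 3 h its log2 values were -0.26, 0.30 and 0.82 in replicates 1, 2 and 3. The other 18 NCM arrays lay between -2.32 and -0.86, so the 3 h cultures stood above every other NCM culture without overlap. The mean at 3 h was 0.28 (SD 0.54, n = 3) and that of the other NCM arrays was -1.58, a difference of 1.87, or 3.64-fold.

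The other times of FOXA1 in NCM did not separate. The values were -1.37, -1.61 and -0.86 at T0, -2.19, -1.22 and -1.62 at 15 min, and -1.99, -1.58 and -1.60 at 30 min. At 1 h they were -0.94, -1.41 and -2.32, the widest spread of the NCM groups (SD 0.70). At 6 h they were -2.30, -1.69 and -1.42, and at 16 h -1.90, -1.33 and -1.10. In order from the highest mean, 3 h was followed by T0, 16 h, 1 h, 15 min, 30 min and 6 h, and from T0 downwards each group overlapped the next.

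Few probes shared the separation at 3 h in NCM, and the test over all times did not pass. Of 13824 probes, 8 (0.0579%) had their 3 NCM values at 3 h above all other NCM values. This share counts only 3 h, which was looked at because FOXA1 itself was highest there. The share of probes with any time separated in this way was not counted, so how uncommon such a separation is was not tested. limma's F test for times in NCM gave FOXA1 an unadjusted p = 0.000392, ranked 4 of 13824 probes, with an adjusted p = 1.00. That test called 0 of the 3 FOXA probes, against a background of 0.0145% of probes (2 probes, with 231 at an unadjusted p under 0.05). The 3 h difference was 2.04 without replicate 1, 1.91 without replicate 2 and 1.65 without replicate 3. It was 2.08 within the larger set of arrays, which has 2 NCM cultures at 3 h, and 1.39 within the smaller set, which has 1.

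The other probes high in NCM at 3 h include a further liver factor. They are those of BTN3A1, a butyrophilin, of STOM, the membrane protein stomatin, of CHURC1, a zinc finger protein, and of CEBPB, the gene of C/EBP beta, together with 3 probes that name no single gene. Probe 9631 of CEBPB had the larger difference from its other NCM arrays, 2.27, with values of 0.85, 0.36 and 2.14 at 3 h and at most -0.13 at other times. The CEBPB probes 5064 and 10615 showed differences of 0.05 and 0.047 at 3 h. Of the 8 probes, 2 belong to the 36 with values shared at some time, namely FOXA1 at T0 and CEBPB probe 9631 at 15 min and 30 min, and neither shared its values at 3 h. Whether the FOXA1 values at 3 h are its own beyond that was not tested.

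At 3 h FOXA1 had a lower value in CM than in NCM in each of 3 pairs, a difference that did not pass the test over all probes. Its CM values at that time were -1.57, -0.24 and -0.54, against -0.26, 0.30 and 0.82 in NCM. CM was below NCM in each pair, by 1.30, 0.54 and 1.35, but the groups overlapped, since replicate 2 in CM lay above replicate 1 in NCM. Of all probes, 2.24% had their 3 CM values wholly below the NCM values at 3 h. In deposited intensity CM had 0.378, 0.708 and 0.740 and NCM had 0.671, 1.28 and 1.91.

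The 3 h difference of FOXA1 was -1.07 (SE 0.30, pair SD 0.46, n = 3 pairs), so that NCM stood 2.09-fold above CM, with a 95% interval of -1.70 to -0.43. limma gave an unadjusted p = 0.00214, ranked 25 of 13824 probes, and an adjusted p = 1.00, so the difference did not pass the threshold. At 3 h limma called 0 of the 3 FOXA probes, as it called 0% of all probes, with 450 at an unadjusted p under 0.05. Of all probes, 11.9% were lower in CM in 3 of 3 pairs at 3 h. The alternative settings gave -1.33 to -0.92 with adjusted p between 0.699 and 1.

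In CM, too, the 3 h group had the highest mean of FOXA1. It was -0.78 (SD 0.70, n = 3), against -1.67 over the other 18 CM arrays, a difference of 0.89, or 1.85-fold. They overlapped those arrays, since replicate 1 at -1.57 lay below the highest other CM value of -0.81. The departure of 3 h from the other times was thus 0.89 in CM and 1.87 in NCM.

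At the other times, too, the FOXA1 values of CM and NCM overlapped. The CM values were -0.81, -1.07 and -1.14 at T0, -1.73, -1.70 and -1.79 at 15 min, and -1.99, -1.01 and -1.94 at 30 min. The difference was 0.28 at T0, -0.06 at 15 min and 0.08 at 30 min, each with an SE of 0.30, and CM and NCM overlapped each time. At 1 h the CM values were -2.51, -1.47 and -2.06, and the difference of -0.46 came mostly from replicate 1 at -1.57, with -0.06 and 0.25 in the others. Without replicate 1 it was 0.096.

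Later the FOXA1 differences were again smaller than at 3 h. CM had -1.94, -1.82 and -1.77 at 6 h, with a difference of -0.04, and -1.73, -1.66 and -1.91 at 16 h, with a difference of -0.33. CM was lower in 2 of 3 pairs at each of these times. Over the 18 pairs after T0, FOXA1 was lower in CM by more than 0.01 in 12, and 11.9% of all probes were so in at least as many. A further pair, replicate 1 at 30 min, had the same value in both media within 0.01.

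Averaged over 3 h, 6 h and 16 h, the FOXA1 difference was -0.48 (SE 0.18, n = 9 pairs, 95% interval -0.84 to -0.11, lower in 7 of 9 pairs). Without replicate 3 it was -0.30. limma gave it an unadjusted p = 0.0129 and an adjusted p = 0.813, in a contrast where 0 of 3 FOXA probes and 0.0434% of all probes (6 probes) were called. Over 15 min, 30 min and 1 h the FOXA1 difference was -0.15 (SE 0.18), with 5 of 9 pairs lower by more than 0.01 and 1 pair within 0.01 of 0. Without replicate 1 it was -0.04. limma's F test for CM against NCM at any time after T0 gave an unadjusted p = 0.0459 and an adjusted p = 1.00, with 0% of probes called and 414 at an unadjusted p under 0.05. Whether the effect of CM differed between the 7 times had an unadjusted p = 0.0935. The 3 h difference minus that at T0 was -1.34 (SE 0.43, unadjusted p = 0.00515, adjusted p = 1.00 by limma), where the T0 term is the value shared with FOXA2.

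**Figure D2:**
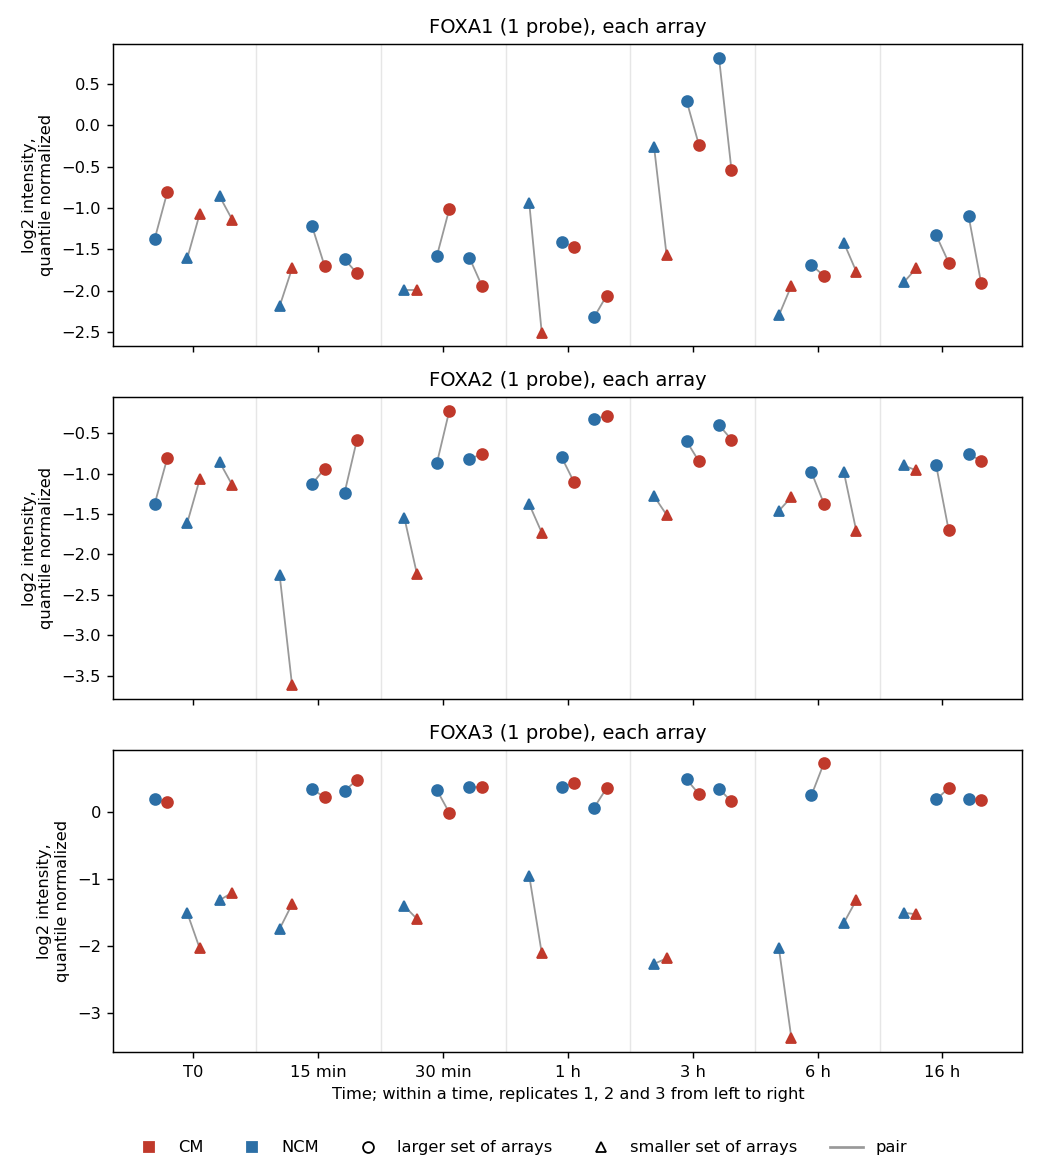
Normalized log2 intensity of FOXA1, FOXA2 and FOXA3 on each array, by time, with CM in red, NCM in blue, circles for the larger and triangles for the smaller set of arrays and grey lines joining the cultures of a pair. FOXA1 in NCM at 3 h lies above its other times, FOXA2 overlaps throughout, and FOXA3 lies near 0.29 on circles and near -1.73 on triangles in both media.

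FOXA2 differed between the media by at most 0.32 at any time with all 3 replicates, and limma called none of these differences. That limit moved with the arrays and the scale: the difference was -0.59 at 15 min without replicate 3, -0.56 at 6 h without replicate 1, and -0.55 at both 6 h and 16 h with the values as deposited. Its level lay between -1.70 and -0.22 on the larger set of arrays and between -3.62 and -0.86 on the smaller set. The -3.62, of replicate 1 in CM at 15 min, is the floor of the scale and so only a bound. In deposited intensity that smaller set held 0.115 to 0.518.

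Early after the medium was added, the replicates of FOXA2 disagreed. At 15 min CM had -3.62, -0.94 and -0.58 and NCM had -2.25, -1.13 and -1.24. At 30 min CM had -2.24, -0.22 and -0.76 and NCM had -1.55, -0.87 and -0.82. At both times replicate 1 was lower in CM and replicates 2 and 3 were higher, so the differences were -0.17 and 0.01 with an SE of 0.31. The 15 min value holds the -3.62 at the floor, and it was 0.28 with the floor at the 10th percentile and 0.42 without replicate 1, so its direction depends on that floor and that culture. At 1 h CM had -1.73, -1.11 and -0.29 against -1.38, -0.80 and -0.32 in NCM, a difference of -0.21 with 2 of 3 pairs lower. Averaged over these 3 times, the difference was -0.13 (SE 0.18, n = 9 pairs, 95% interval -0.49 to 0.24), and without replicate 1 it was 0.21.

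From 3 h onwards the FOXA2 value was below that of NCM in 8 of 9 CM cultures, by 0.07 to 0.80. At 3 h CM had -1.51, -0.85 and -0.58 and NCM had -1.28, -0.60 and -0.40. The 3 pairs gave nearly the same difference, -0.23, -0.25 and -0.18, with a pair SD of 0.038, while the 3 replicates lay much farther apart within each medium. At 6 h CM had -1.29, -1.37 and -1.71 and NCM had -1.46, -0.98 and -0.98, a difference of -0.32 with 2 of 3 pairs lower. At 16 h CM had -0.96, -1.70 and -0.84 and NCM had -0.90, -0.90 and -0.76, and the difference of -0.31 came from replicate 2 at -0.80 with -0.07 in each of the others. That difference was -0.07 without replicate 2 and 0.05 with centring on neighbouring probes.

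None of these differences of FOXA2 passed the test. The mean over 3 h, 6 h and 16 h was -0.28 (SE 0.18, n = 9 pairs, 95% interval -0.65 to 0.085, lower in 8 of 9 pairs), with an unadjusted p = 0.124 and an adjusted p = 0.832 by limma. FOXA2 was lower in 3 of 3 pairs at 3 h and at 16 h, as were 11.9% and 12.6% of all probes. Over the 18 pairs after T0 it was lower by more than 0.01 in 12, as were 11.9% of probes in at least as many. At 16 h limma called 0 of the 3 FOXA probes and 0.00723% of all probes (1 probe), with 658 at an unadjusted p under 0.05.

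FOXA2 also had no separated time in NCM. Its means ran from -0.76 (SD 0.46, n = 3) at 3 h, the highest, through 1 h, 16 h, 30 min, 6 h and T0 to -1.54 (SD 0.62) at 15 min. Each group in that order overlapped the next, and limma's F test for times in NCM gave an unadjusted p = 0.299 and an adjusted p = 1.00.

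FOXA3 followed the set of arrays far more closely than medium or time. On the 24 arrays of the larger set it lay between -0.02 and 0.72 (mean 0.29, SD 0.16), and on the 18 of the smaller set between -3.38 and -0.96 (mean -1.73, SD 0.55). The sets did not overlap and differed by 2.02, or 4.07-fold. In deposited intensity, before any normalization here, the larger set held 1.05 to 1.61 and the smaller set 0.214 to 0.681. Of all probes, 166 (1.2%) separated the sets without overlap, and the size of FOXA3's difference was at percentile 99.1 of all probes.

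The other members did not do so. FOXA2 was higher on the larger set by 0.69 and FOXA1 by 0.31, and both overlapped between the sets, at percentiles 89.1 and 58.3 of all probes. What the sets stand for was not tested. For FOXA3, experiment, time and array set are mixed in every comparison between times, so those levels are values only.

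Within pairs, the FOXA3 values of the media lay close together on the larger set. At 15 min replicates 2 and 3 had 0.21 and 0.47 in CM and 0.34 and 0.31 in NCM, and replicate 1, on the smaller set, had -1.38 and -1.75. At 30 min CM had -1.60, -0.02 and 0.37 against -1.41, 0.32 and 0.36, and at 3 h CM had -2.19, 0.26 and 0.15 against -2.27, 0.48 and 0.34. At 16 h CM had -1.53, 0.35 and 0.17 and NCM had -1.51, 0.18 and 0.19. At these 4 times CM and NCM of a pair were at most 0.36 apart, whereas replicate 1 lay over 1 below the others.

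The widest pair differences of FOXA3 were on the smaller set. At 1 h CM had -2.11, 0.43 and 0.35 and NCM had -0.96, 0.36 and 0.06, so replicate 1 differed by -1.16. At 6 h CM had -3.38, 0.72 and -1.32 and NCM had -2.04, 0.24 and -1.66, so replicate 1 differed by -1.34 while the others were higher in CM. At T0 CM had 0.14, -2.04 and -1.21 and NCM had 0.18, -1.51 and -1.32. The SD of the pair differences was 0.23 over the 12 pairs of the larger set and 0.62 over the 9 of the smaller set, beside 0.55 and 0.76 for FOXA1 and 0.45 and 0.56 for FOXA2.

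The FOXA3 differences were -0.15 at T0, 0.13 at 15 min, -0.18 at 30 min, -0.27 at 1 h, -0.11 at 3 h, -0.17 at 6 h and 0.04 at 16 h, each with an SE of 0.29. limma called none of them. Without replicate 1 the difference was 0.18 at 1 h and 0.41 at 6 h. Over the 18 pairs after T0, CM was lower by more than 0.01 in 9, and 51.9% of probes were so in at least as many pairs. The mean over 3 h, 6 h and 16 h was -0.08 (SE 0.16, n = 9 pairs), with a 95% interval of -0.42 to 0.26, and it was 0.06 with median centring. Over 15 min, 30 min and 1 h the mean was -0.10 (SE 0.16). The F test for times in NCM had an unadjusted p = 0.874.

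**Figure D3:**
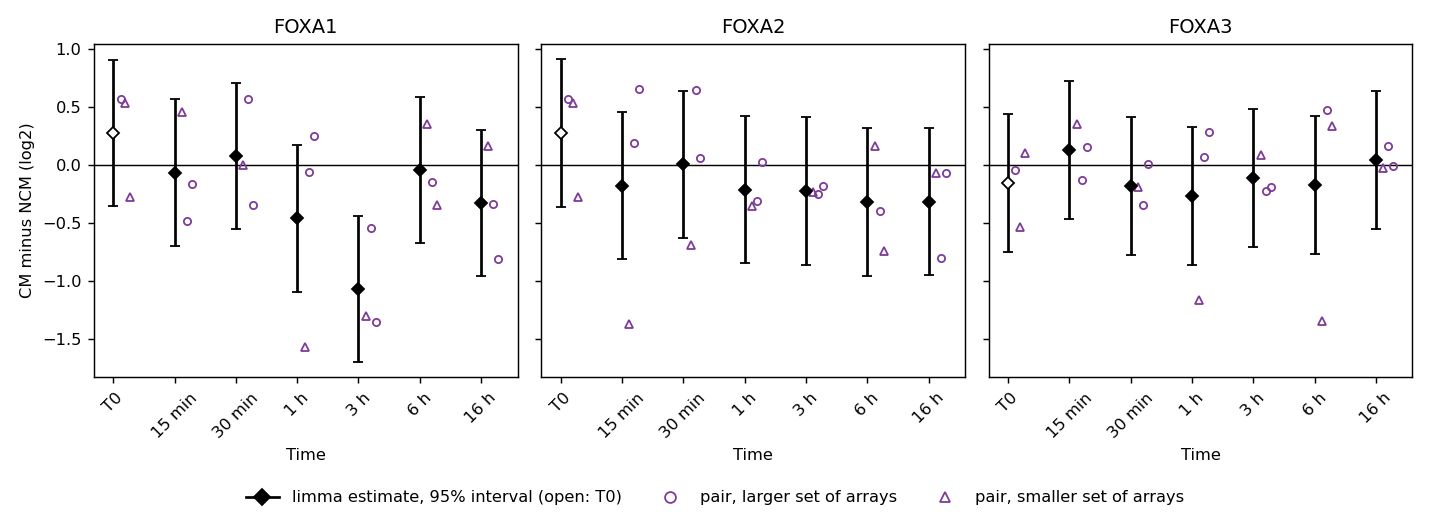
CM minus NCM (log2) of FOXA1, FOXA2 and FOXA3 by time, with the limma estimate and its 95% interval in black (open diamond at T0, where values are shared with another probe) and single pairs in purple, circles for the larger and triangles for the smaller set of arrays. Only the interval of FOXA1 at 3 h, -1.70 to -0.43, lies wholly on one side of 0.

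The levels of the 3 genes had little in common across arrays. These correlations describe arrays that share experiments and array sets, so they are given within each set and for the pair differences, without a test. FOXA1 with FOXA2 had r = 0.24 over the 24 arrays of the larger set, 0.35 over the 18 of the smaller set and 0.23 over the 21 pair differences, 6 arrays in all being the shared T0 values. FOXA2 with FOXA3 had -0.37, -0.10 and -0.32, and FOXA1 with FOXA3 had -0.02, 0.17 and 0.11.

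The probes named here for each gene were chosen by the Pearson correlation over the 42 arrays. The most like FOXA1 were TNFSF4, the OX40 ligand (0.58 in the larger set, 0.50 in the smaller set and 0.16 in pair differences), LMNA, the gene of lamins A and C (0.51, 0.53 and 0.43), and DMPK, a protein kinase (0.53, 0.41 and 0.49). For FOXA2 they were CNOT6L, a deadenylase of the CCR4-NOT complex (0.55, 0.81 and 0.69), DAD1, a subunit of the oligosaccharyltransferase (0.51, 0.87 and 0.65), and NKTR, a cyclophilin-related protein (0.39, 0.76 and 0.61).

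For FOXA3 the same rule named THEM6, CSRNP2 and NT5DC2, but their likeness did not hold within the sets. THEM6 had r = 0.01 in the larger set, 0.05 in the smaller set and 0.16 in pair differences. CSRNP2 had -0.42, 0.18 and 0.15, and NT5DC2 had 0.25, 0.34 and 0.00. A pooled value over the sets would describe the step between them, and none is given.

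Of 33 other liver transcription factors in a list of hepatocyte regulators, 13 were measured, among them CEBPB, CEBPD, GATA4, GATA6, ONECUT2, PROX1, HHEX, NR0B2 and XBP1. limma called 0 of 13 at every time, beside 0% of all probes at T0 to 6 h. At 30 min all 13 had a value above 0, beside 48.6% of all probes, with a median of 0.35 beside -0.01 over all probes. That median was 0.10 with arrays centred on their medians instead of quantile normalized, and 0.09 without replicate 2. Among the 13, CEBPB by its probe 5064 was at only 0.002 at 30 min, and its values at that time were shared with another probe. At the other times the medians were -0.07 to 0.03.

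The 4 genes of this list with the smallest unadjusted p over the times after T0 were CEBPD, ATF5, GATA6 and CEBPB. The remaining C/EBP gene measured, CEBPG, was placed 12 of 13 by that test, with an unadjusted p = 0.883. CEBPD, a C/EBP factor induced in the acute phase, had 1.14 at 1 h (SE 0.30, n = 3 pairs, higher in 3 of 3 pairs, unadjusted p = 0.000997, adjusted p = 0.977 by limma), then 0.55 at 3 h and 0.55 at 6 h. CEBPB, by its brightest probe 5064, had 0.71 at 6 h (SE 0.24, higher in 3 of 3 pairs). ATF5, a stress-responsive bZIP factor, had 0.56 at 15 min and -0.58 at 16 h (SE 0.27). GATA6, a zinc finger factor of endoderm, had -0.36 at 3 h and 0.69 at 16 h (SE 0.28).

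The other forkhead genes with a probe of their own were FOXP2, FOXO3, FOXN3 and FOXK2, and limma called 0 of 4 at every time, again beside 0% of all probes at T0 to 6 h and 0.00723% at 16 h. At 3 h, where FOXA1 had -1.07, these had -0.10, -0.55, -0.33 and -0.11, a median of -0.22 with 0 of 4 above 0, beside 50.8% of all probes above 0. At 1 h their median was -0.29 with FOXP2 at -0.48 (SE 0.19, lower in 3 of 3 pairs). FOXO3, a forkhead factor restrained by insulin signalling, had 0.11 at 1 h and -0.38 at 30 min. At 6 h and 16 h the medians were 0.08 and 0.02, and that at 6 h was -0.03 with the values as deposited.

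Among 28 genes with a well known FOXA site in a liver promoter or enhancer, 19 were measured and limma called 0 of 19 at every time, beside 0% of all probes at T0 to 6 h and 0.00723% at 16 h. Their medians stayed between -0.10 at 30 min and 0.13 at 1 h, with 6 to 11 of 19 above 0, or 31.6% to 57.9%, beside 48.6% to 51.9% of all probes. At 3 h the median was 0.02 with 10 above 0. Only the median at 15 min, -0.06, kept its sign in all 12 alternatives. IGFBP1, an insulin-regulated liver gene, was the member farthest from 0. It had 1.02 at 1 h, 1.38 at 3 h and 0.67 at 6 h (SE 0.29, higher in 3 of 3 pairs each time), with an unadjusted p = 0.000100 and an adjusted p = 0.462 by limma at 3 h.

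Other members went each way. FGB, the fibrinogen beta chain gene, had 0.43 at 3 h, 0.68 at 6 h and 0.56 at 16 h (SE 0.26), a mean over these times of 0.56 with 8 of 9 pairs higher. TTR, the gene of transthyretin and a classic FOXA target, had -0.57 at 15 min, -0.26 at 30 min and -0.38 at 1 h (SE 0.22). The mean over these times was -0.40, lower in 9 of 9 pairs, with an unadjusted p = 0.00529 and an adjusted p = 0.686 by limma. APOA1, the main protein of high-density lipoprotein, had -0.61 at 15 min and -0.57 at 6 h (SE 0.26), lower in 3 of 3 pairs both times.

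**Figure D4:**
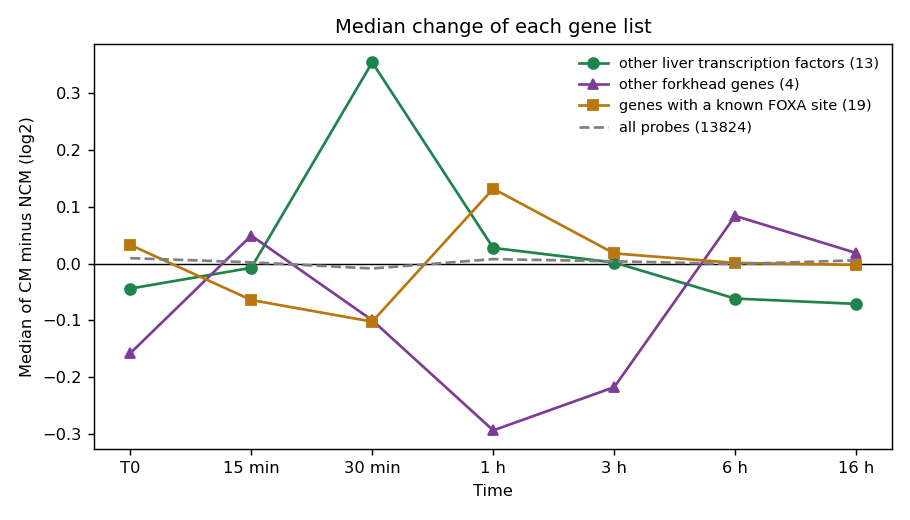
Median CM minus NCM (log2) over the measured genes of 3 lists by time, with the median of all 13824 probes as a dashed line. The 13 other liver transcription factors reach 0.35 at 30 min, the 4 other forkhead genes lie at -0.29 at 1 h and -0.22 at 3 h, and the 19 genes with a known FOXA site stay between -0.10 and 0.13.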

How the data were processed

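Per the labels, total RNA of Hep3B cultures was measured on arrays, and the authors deposited 1 linear intensity per probe and array. The type of array, its scanner and any background or scaling step is not given in the sources used here. Negative values made up no more than 2.12% of an array. The linear values were quantile normalized and raised to a floor of 0.0812, the 1st percentile after that step, before log2 was taken.

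Tests used R 4.3.3 and limma 3.58.1, two-sided, with 1 term per pair, 1 CM effect per time, 14 residual and 6.26 prior degrees of freedom, and Benjamini-Hochberg adjustment over 13824 probes (threshold 0.05). Times in NCM were compared on 21 arrays without a block. The pairs come from the labels, and deviations of paired arrays from their group means correlated at 0.308 to 0.754. A mean over 3 times treats its 9 pairs as independent, although only 3 experiments lie behind them. Of 7336 probes with 1 gene in the array annotation, 7322 matched a RefSeq gene table and 0 symbols were updated. A listed gene was represented by its brightest probe.

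Named were the 3 FOXA genes, up to 4 genes of each list with the smallest unadjusted p over the times after T0, and the 3 genes most correlated with each FOXA probe, without probes of shared values. CEBPB probes 9631 and 10615, and the other probes high in NCM at 3 h, were singled out once their values had been seen. The FOXA genes and the lists were chosen with earlier results of these data known. The settings varied were the pair block (left out), the normalization (none, or median centring), a floor at the 10th percentile, dimmest 50% of probes left out, each time alone, an intensity trend with robust spread, centring on neighbouring probes, shared values left out, and each replicate left out. Fits within a set of arrays, and the set as a block in NCM, were added after seeing the data. The steps were tested on simulated data, and plots used matplotlib 3.10.9.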

Additional observations from a re-analysis of the deposited data

Results flagged for a closer look

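Some list members were higher in CM in 3 of 3 pairs at one time and lower in 3 of 3 pairs at another. The share of all probes with such a pattern was not counted. Being lower in 3 of 3 pairs was itself common, at 11.9% of all probes at 3 h and 12.6% at 16 h, so the pattern does not set these genes apart. limma tested the differences from T0, which did not pass. The other differences between times were not tested.

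GATA6 had 0.69 at 16 h and -0.36 at 3 h, 1.05 apart. FOXP2 had 0.24 at T0 and 0.40 at 15 min but -0.48 at 1 h, 0.72 and 0.88 apart. The first of these had an unadjusted p = 0.0149 and an adjusted p = 1.00 by limma. FOXO3 had 0.11 at 1 h but -0.18 at T0 and -0.38 at 30 min, 0.29 and 0.49 apart, the first with an unadjusted p = 0.341 and an adjusted p = 1.00 by limma.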

How the results depend on the processing

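The FOXA results had 591 values under alternative settings. They were CM minus NCM differences, the departure of FOXA1 at 3 h in NCM, and adjusted p values of F tests. Of these, 561 stayed within the error of the reported value or on its side of 0, and 30 moved further. The count of 561 does not measure stability, because several settings cannot change a CM minus NCM difference. These are the block left out, each time alone, the intensity trend, the dimmest probes left out and shared values left out. A value on the same side of 0 also counts as staying, such as -1.57 for FOXA1 at 1 h in the smaller set beside -0.46. All that moved were CM minus NCM differences, and an adjusted p cannot leave its side of 0. limma called 0 FOXA probes in any of these settings. The mean of FOXA2 over 15 min, 30 min and 1 h was 0.21 without replicate 1, which leaves only the larger set of arrays at these times. In the smaller set only, which is replicate 1 there, this mean was -0.80. It ranged from -0.31 to 0.21 when a replicate was left out. The mean of FOXA3 over 3 h, 6 h and 16 h was 0.12 in the larger set only and ranged from -0.19 to 0.094 when a replicate was left out. When a replicate was left out, the mean of FOXA1 ranged from -0.23 to -0.04 over the early times and from -0.59 to -0.30 over the late ones. The adjusted p of FOXA1 over times in NCM was between 0.407 and 1.

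Leaving out the pair block cannot change a CM minus NCM difference here, because every time has complete pairs. FOXA1 at 3 h was thus -1.07 either way (adjusted p = 1.00 by limma without the block). The block changed no call of a FOXA gene. Over all probes, the count at 16 h was 1 with the block and 0 without it, and 0 to 7 over the alternatives. For the late mean (3 h to 16 h) it was 6 with the block and 0 without it, and 0 to 10 over the alternatives. At 6 h it was 0, and it differed in 3 of 14 alternatives. The larger set has 1 pair at 6 h, so its count there is not given. FOXA1 and FOXA2 are among the dimmest 50% of probes, so that setting gave no value for them, and leaving out shared values gave none at T0.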
